A study of Mus musculus with 10 samples.

Results

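The kallikreins described here are 8 mouse genes, Klk4, Klk6, Klk7, Klk8, Klk10, Klk11, Klk12 and Klk13, chosen by name as kallikreins outside the Klk1 and Klk1b cluster, each through the probe sets whose only annotated gene symbol is that gene. Klk5 and Klk9 also have such probe sets and are described as neighbours. Each had exactly 1 probe set, so the 8 genes rest on 8 of the 45101 probe sets of the array, and 7 of them were among the 14087 genes tested. They were measured on 10 Affymetrix arrays of medullary thymic epithelial cells (mTECs), sorted as CD45-, EpCAM+ and CD80hi from thymus of mice of C57BL/6 background aged 3 weeks. Of the arrays, 5 came from wild type animals (WT, numbered 1 to 5) and 5 from Fezf2 KO animals (KO, numbered 6 to 10). Fezf2 encodes a DNA-binding zinc finger protein, and the design addresses which mTEC genes differ in its absence. The part of Fezf2 that was deleted, the cells in which it was deleted and whether each array came from a separate mouse are unstated in the labels, so p-values measure the spread between arrays, which may be technical.

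Tissue kallikreins are secreted serine proteases made as inactive precursors that other proteases activate. In the epidermis they act in the outermost layers, where they cut the desmosomal proteins that hold cornified cells together, and the Kazal-type inhibitor encoded by Spink5 restrains them. Outside the skin, Klk4 is known for degrading enamel matrix proteins in developing teeth, and Klk6 and Klk8 are known from the brain as neurosin and neuropsin. Mature mTECs express many such genes of peripheral organs at low frequency, which exposes developing T cells to their products. In RNA pooled from many sorted cells, fewer cells expressing a gene and less RNA per expressing cell cannot be told apart.

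The targeted gene matched the labels. Fezf2 had signals of 5054 to 5895 on WT arrays and 12.1 to 18.3 on KO arrays, where every value lay below the 40th percentile of its array (21.5 to 22.1). Median signals per array were 36.5 to 38.0, on the deposited linear intensity scale. Apart from Fezf2 itself, markers of epithelium and mature mTECs had high signals in both groups, among them Epcam with 7344 ± 232 on WT and 7695 ± 261 on KO arrays (SD, n = 5 each). Their levels were not all alike between groups: of 7 tested epithelial markers Cdh1 and Krt5 were higher in KO cells and Krt14 was lower, and of 8 tested markers of mature mTECs Tnfrsf11a was higher and Aire and Fezf2 were lower (limma, adjusted p under 0.05). Over all genes tested, 13.0% were higher and 16.2% lower. Xist, which is transcribed in female cells, was near background on 1 WT and 2 KO arrays, namely WT 2, KO 6 and KO 8.

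The promoters of Klk7 and Klk8, the members called lower, and of Klk4, which was not called, are shown first. The kallikrein genes lie in 1 locus on chromosome 7, where Klk6 and Klk5 are between Klk7 and Klk4. The window of Klk5, which is not a member, was not examined. The sequences are from RefSeq on GRCm38.p6, plus strand, and run from 250 bases before to 50 bases after the annotated start. Klk7 is at chr7:43811044-43811343, Klk8 at chr7:43797327-43797626 and Klk4 at chr7:43880910-43881209. Capitals mark the GC box GGGCGG on either strand (CCGCCC on the other), a letter pattern bound by Sp and Klf family factors.
Klk7: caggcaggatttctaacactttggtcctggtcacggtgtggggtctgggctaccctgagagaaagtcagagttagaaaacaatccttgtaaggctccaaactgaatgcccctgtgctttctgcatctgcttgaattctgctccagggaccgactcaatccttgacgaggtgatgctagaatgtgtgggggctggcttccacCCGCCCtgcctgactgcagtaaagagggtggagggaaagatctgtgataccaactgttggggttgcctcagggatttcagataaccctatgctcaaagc
Klk8: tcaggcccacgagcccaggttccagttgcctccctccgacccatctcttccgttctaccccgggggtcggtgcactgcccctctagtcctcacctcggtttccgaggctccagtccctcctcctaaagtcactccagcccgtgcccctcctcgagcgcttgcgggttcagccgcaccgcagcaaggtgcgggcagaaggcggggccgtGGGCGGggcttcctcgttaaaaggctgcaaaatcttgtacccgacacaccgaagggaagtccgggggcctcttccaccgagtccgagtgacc
Klk4: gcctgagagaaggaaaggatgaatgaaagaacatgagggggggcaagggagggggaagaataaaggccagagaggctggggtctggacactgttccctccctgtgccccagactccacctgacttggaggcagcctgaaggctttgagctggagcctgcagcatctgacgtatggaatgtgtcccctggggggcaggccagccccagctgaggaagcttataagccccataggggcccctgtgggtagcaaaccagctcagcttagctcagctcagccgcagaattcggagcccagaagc
The GC box began 49 bases before the start in Klk7 and 42 bases before it in Klk8, and it was not present in the Klk4 window. All 8 genes matched the promoter table, with 10 windows because Klk6 and Klk11 have a pair each. The 2 windows of Klk6, a gene not called, also held GC boxes, and those of Klk10, Klk11, Klk12 and Klk13 did not. The same letters occurred in 35.7% of the 32851 promoter windows of this length. No member window held the TATA box letters TATAAA (13.6% of all windows) or the AP-1 letters TGANTCA (7.81%), and 1 window of Klk11 held CCAAT (37.4%), each searched on both strands. The Klk8 window had a GC content of 65.3%, the other member windows 52.0% to 59.3%, and all windows a median of 52.7%. Each match is a description of letters in the window and not evidence of binding.

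Klk7 and Klk8, both proteases of the upper epidermis, were lower in Fezf2 KO cells, and no member passed the test in the higher direction (Klk10 alone had an unadjusted p under 0.05 there, and it passed under 6 alternatives given with its values). Klk7, the stratum corneum chymotryptic enzyme, had a mean signal of 1054 ± 137 on WT and 729 ± 108 on KO arrays, and Klk8 one of 245 ± 9.32 on WT and 178 ± 15.4 on KO arrays (SD, n = 5 each). The other 5 tested members, Klk4, Klk6, Klk10, Klk12 and Klk13, did not pass, and Klk11 lay below the filter on low values. Of all 14087 genes 29.2% were called, 16.2% as lower and 13.0% as higher (limma, adjusted p under 0.05). With 7 members, 2 lower and 0 higher is not far from those shares, and the count is not read as a feature of the group. Median log2 differences were -0.08 over the 7 tested members and -0.03 over all genes tested.

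**Figure D1:**
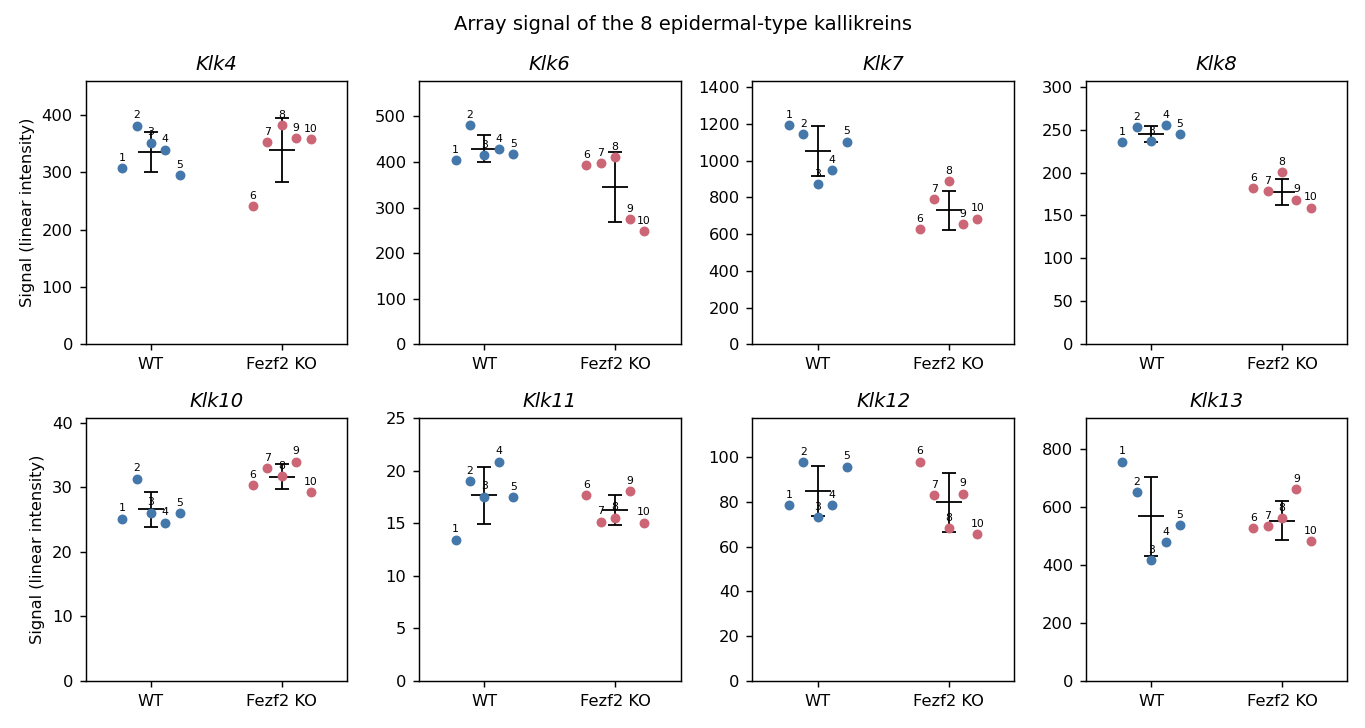
Signal (linear intensity, vertical axis starting at 0) of each of the 8 members on the 5 WT and 5 Fezf2 KO arrays, with points numbered by array and black marks giving the mean and SD of each group. The KO points of Klk8 lie entirely below its WT points, those of Klk7 overlap only through KO 8 and WT 3, and the groups of the other 6 genes overlap.

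Klk7 cleaves corneodesmosin and related proteins of cornified cell junctions. Its signals were 1195, 1147, 873, 949 and 1104 on WT 1 to WT 5 and 628, 789, 890, 656 and 684 on KO 6 to KO 10. The groups overlapped through a single pair, since KO 8 was above WT 3 and every other KO array was below every WT array. The log2 difference, KO minus WT, was -0.52 (SE 0.11, 95% interval -0.76 to -0.28, limma adjusted p = 0.00365), a 1.44-fold fall on the log2(signal + 16) scale. An exact permutation test, two-sided, gave p = 0.0159.

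Klk8, whose product neuropsin cuts adhesion and signalling proteins in both brain and skin, had the tightest WT group of the 8 genes, with a coefficient of variation of 3.80%. Its signals were 235, 253, 236, 256 and 245 on the WT arrays and 181, 179, 200.2, 169 and 159 on the KO arrays. The groups did not overlap, a separation that 12.0% of all tested genes showed in this direction and 10.1% in the other. The log2 difference was -0.43 (SE 0.07, 95% interval -0.58 to -0.29, limma adjusted p = 5.4e-04), a 1.35-fold fall. An exact permutation test, two-sided, gave p = 0.00794, which is the lowest that 10 arrays in 2 groups of 5 allow. In both genes KO 8 was the highest KO array, while the lowest was KO 6 for Klk7 and KO 10 for Klk8.

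Klk6, the protease neurosin, is abundant in oligodendrocytes and is also made in skin. Its signals were 404, 481, 416, 428 and 418 on the WT arrays and 394, 398, 410, 275 and 248 on the KO arrays. The KO arrays fell into a set of 3 near the WT values and a set of 2, KO 9 and KO 10, well below them, and KO 8 was above WT 1. The difference of -0.33 (SE 0.13, 95% interval -0.62 to -0.04) did not pass over all genes (limma adjusted p = 0.0817). An exact permutation test of this gene alone, two-sided, gave p = 0.0159. With the presence of Xist signal as a block it was -0.39 and passed (adjusted p = 0.0210). The coefficient of variation was 22.4% in KO and 7.04% in WT cells.

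Klk4 and Klk13 had signals in the same range in both groups. Klk4, the enamel matrix protease, gave 307, 381, 352, 339 and 295 on the WT arrays and 241, 352, 382, 359 and 357 on the KO arrays, with KO 6 apart from the other KO arrays. Its log2 difference was 0.003 (SE 0.12, 95% interval -0.25 to 0.25, limma adjusted p = 0.99). Klk13 is a kallikrein of stratified epithelia. It gave 755, 650.3, 416, 477 and 536 on the WT arrays and 525, 532, 559, 659 and 481 on the KO arrays, and the WT range enclosed the KO range. Its difference was -0.02 (SE 0.14, 95% interval -0.33 to 0.29, limma adjusted p = 0.949). The intervals of both genes leave room for changes of up to 1.19-fold in either direction for Klk4 and up to 1.25-fold lower or 1.23-fold higher for Klk13, and their WT and KO means cannot be separated at this spread.

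The 3 remaining members had signals nearer the bulk of the array's probe sets. Klk12 gave 73.4 to 97.8 on the WT arrays with a median of 78.6, and 65.7 to 98.1 on the KO arrays with a median of 83.0, so the groups overlapped widely (log2 difference -0.08, SE 0.11, limma adjusted p = 0.629). Klk10 gave 25.2, 31.4, 26.1, 24.5 and 26.0 on the WT arrays and 30.4, 33.0, 31.8, 34.0 and 29.2 on the KO arrays. Its WT and KO arrays overlapped only through WT 2, which was apart from the other WT arrays. The log2 difference of 0.16 (SE 0.06, 95% interval 0.04 to 0.29) missed the threshold (limma adjusted p = 0.0540), and it passed without WT 2 (0.20, adjusted p = 0.0179). Array weights (0.21, adjusted p = 0.00669) and median centring (0.17, adjusted p = 0.0377) also brought it past the threshold, as did quantile normalization (0.17, adjusted p = 0.0403), the mean of probe sets (adjusted p = 0.0452) and a block for arrays WT 1 and KO 6 (adjusted p = 0.0470). The mean of probe sets and the block left the log2 difference at 0.16. An exact permutation test of Klk10 alone, two-sided, gave p = 0.0238. All Klk10 signals lay below the median of their array, where added background has most weight, and detection calls were not used here. Klk11 gave 13.4 to 20.9 on the WT arrays and 15.1 to 18.0 on the KO arrays, below the 40th percentile on all 10, and in a fit without the filter its difference was -0.06 (SE 0.06, limma adjusted p = 0.515).

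Relative to the other probe sets of the same array, Klk7 ranked between the 91.1 and 95.5 percentiles, Klk13 between 86.4 and 92.5, Klk6 between 79.8 and 88.4, Klk4 between 79.7 and 85.8 and Klk8 between 73.0 and 80.2. Klk12 ranked between the 59.3 and 65.9 percentiles, Klk10 between 42.3 and 48.4 and Klk11 between 25.9 and 38.8. Probe sets differ in how brightly they report the same amount of RNA, so these ranks place each probe set on its array and do not order the genes by transcript number.

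Along the chromosome Klk7 and Klk8 are neighbours, and another kallikrein that fell lay close by. The RefSeq order in this stretch is Klk13, Klk12, Klk11, Klk10, Klk9, Klk8, Klk7, Klk6, Klk5, Klk4, and the Klk1b genes and Klk1 follow beyond Klk15. Klk5, a trypsin-like protease that activates Klk7 in human skin and lies between Klk6 and Klk4, fell from 402 ± 38.2 to 282 ± 49.7 (SD, n = 5 each, log2 difference -0.50, SE 0.11, limma adjusted p = 0.00473), and its groups did not overlap. Klk9, next to Klk8 on the other side, had a difference of -0.11 (adjusted p = 0.167), and although it was not called, its low signals of 38.3 to 44.7 on KO arrays all lay below the 45.0 to 46.3 on WT arrays. Such a separation occurred in 12.0% of all genes tested. The called genes Klk8, Klk7 and Klk5 sat within 4 consecutive genes with Klk6 between them, and the lack of a call for Klk9 marks no clear edge. Of 11 tested kallikreins outside the 8 members, 8 were lower and none higher, with a median log2 difference of -0.76. All genes tested had a median of -0.03, with 16.2% lower and 13.0% higher. Klk1, the glandular kallikrein, fell from 1343 ± 113 to 753 ± 113 and Klk1b16 from 862 ± 139 to 174 ± 56.6 (log2 differences -0.83 and -2.25, limma adjusted p = 1.0e-04 and 6.3e-06). The differences between the 8 members and the other kallikreins were not tested. Probe sets of the Klk1b genes can share sequence with each other, so their values are less separate than those of Klk4 to Klk13.

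**Figure D2:**
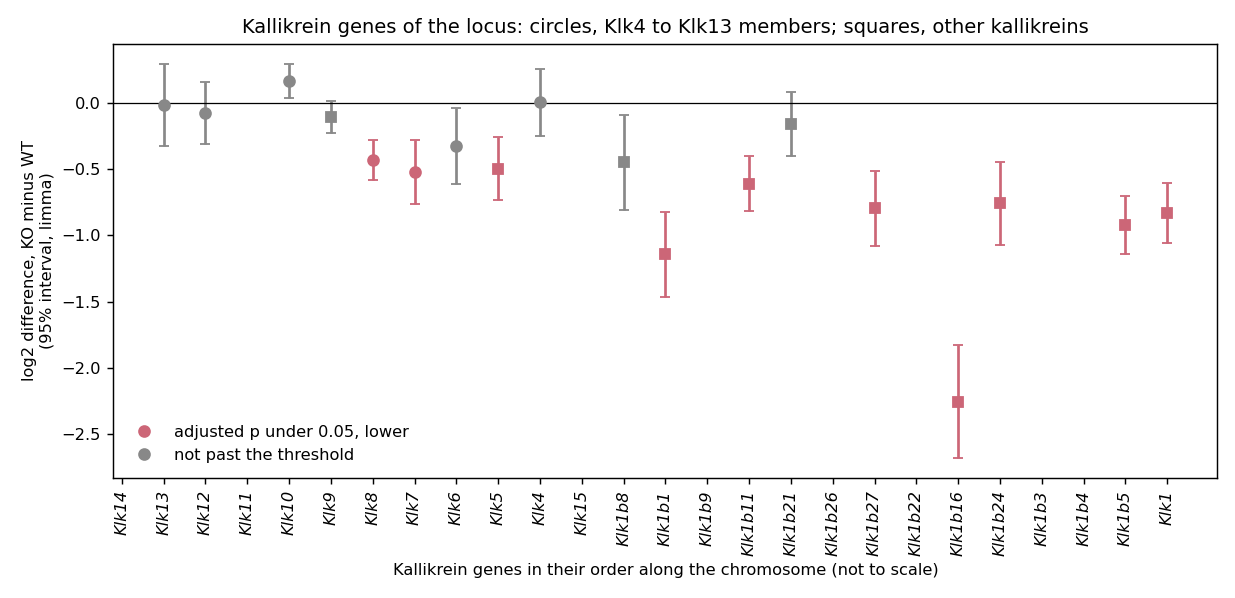
Log2 difference, KO minus WT, with 95% limma intervals (vertical axis) for the kallikrein genes in their order along the chromosome (horizontal axis, not to scale), circles for Klk4 to Klk13 members and squares for other kallikreins. Genes with no point had no single-symbol probe set or lay below the filter. From Klk13 to Klk4 the called genes are Klk8 (-0.43), Klk7 (-0.52) and Klk5 (-0.50), which lie near each other. Klk1 and several Klk1b genes further along were also called lower, down to -2.25 for Klk1b16.

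The genes that act around these proteases went partly the other way. Of 7 tested inhibitors of kallikreins or their activators, 5 were higher and none lower, with a median log2 difference of 0.31. Over all genes tested, 13.0% were higher and 16.2% lower, with a median of -0.03. The list was chosen with earlier results of these data known, and its count was not tested against those shares. At an adjusted p under 0.01 (limma), 2 inhibitors were higher. Serpina12 passed as lower without WT 3. Spink5, the epidermal inhibitor LEKTI, gave 1229, 733, 719, 647 and 668 on the WT arrays and 2796, 1376, 1753, 1449 and 1369 on the KO arrays. Every KO array was above every WT array, as in 10.1% of all genes tested. WT 1 and KO 6 were the highest of their groups (log2 difference 1.10, SE 0.21, limma adjusted p = 0.00202). Spink12, a further Kazal-type inhibitor gene, rose from 742 ± 278 to 1516 ± 483 (SD, n = 5 each, log2 difference 1.04, adjusted p = 0.00520). Slpi, the secretory leukocyte protease inhibitor, and Spint1, which inhibits matriptase, rose by 0.31 and 0.26 on the log2 scale (adjusted p = 0.0108 and 0.0185). A2ml1, an alpha-2-macroglobulin-like inhibitor, rose by 0.35 (adjusted p = 0.0325), but its call was kept in only 4 of the 10 fits that left out 1 array, with an adjusted p of up to 0.0829. Serpina12 and Spint2 had differences of -0.24 and 0.10 and did not pass.

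Among 7 proteases of a list drawn up as possibly upstream of kallikreins, 3 were higher and 1 lower, with a median log2 difference of 0.02. Shares over all genes tested were 13.0% higher and 16.2% lower. St14, the membrane protease matriptase, rose from 975 ± 128 to 1303 ± 59.2, and Prss8, its partner prostasin, from 150.5 ± 21.5 to 270.0 ± 72.4 (SD, n = 5 each, limma adjusted p = 0.00284 and 0.00253). Ctsc, the dipeptidyl peptidase cathepsin C, which can activate Klk4, rose by 0.75 on the log2 scale (adjusted p = 3.4e-05). Mep1a, a meprin subunit of the intestinal and renal brush border, fell from 610.0 ± 71.8 to 298 ± 16.6 (adjusted p = 4.3e-06). Plg, Mmp20 and Mep1b did not pass.

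Of 10 tested kallikrein substrates, 6 were higher and 2 lower, with a median log2 difference of 0.43. Shares over all genes tested were 13.0% higher and 16.2% lower. The corneodesmosomal genes were all in the higher group. Cdsn, corneodesmosin, rose from 72.1 ± 13.8 to 104 ± 10.4 and Dsg1a, a desmoglein, from 1340 ± 183 to 1852 ± 266 (SD, n = 5 each, log2 differences 0.46 and 0.46, limma adjusted p = 0.00920 and 0.0110). Dsg1b and Dsc1 rose by 0.42 and 0.43 and Flg, the filaggrin gene, by 0.51. The call of Dsc1 was kept in only 3 of the 10 fits that left out 1 array and that of Flg in 6, with adjusted p values of up to 0.0848 and 0.0595. L1cam, a neural adhesion molecule that neuropsin cuts, rose by 0.76 (adjusted p = 0.00100). Camp, the cathelicidin precursor that epidermal kallikreins process, fell from 498 ± 124 to 289 ± 90.3 (log2 difference -0.78, adjusted p = 0.0209), and this call was lost without WT 2 (-0.71, adjusted p = 0.0530). Ambn, an enamel protein, fell from 44.0 ± 6.25 to 22.6 ± 3.60 (log2 difference -0.63, adjusted p = 1.8e-04).

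**Figure D3:**
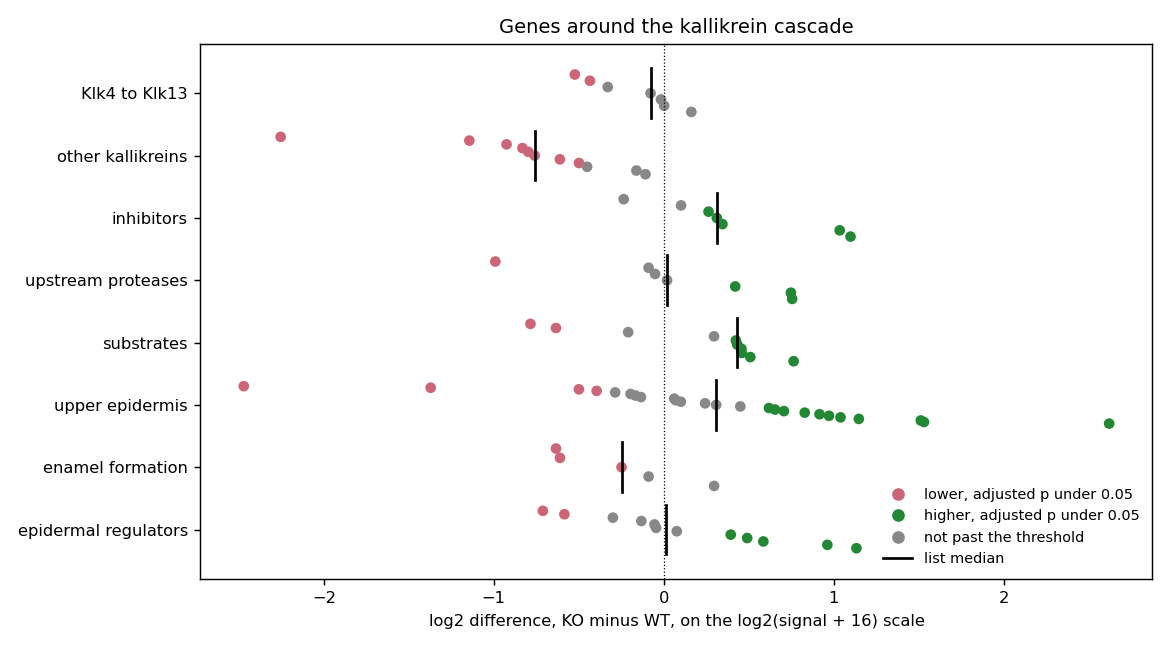
Log2 difference, KO minus WT (horizontal axis, log2(signal + 16) scale), of every tested gene in each list around the kallikreins, 1 point a gene, coloured by call, with a black bar at the list's median. The medians were -0.08 for Klk4 to Klk13, -0.76 for the other kallikreins, 0.31 for the inhibitors and 0.43 for the substrates.

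Genes of the upper epidermis, the layers in which these kallikreins are made, were higher in 11 of 25 tested cases and lower in 4, with a median log2 difference of 0.31, where 13.0% of all genes tested were higher and 16.2% lower. Of the 4 lower genes, Alox12b kept its call in only 2 of the 10 fits that left out 1 array, with an adjusted p of up to 0.0861. Scel and Tgm1, which contribute to the cornified envelope, rose by 2.62 and 1.04 on the log2 scale and Lor, loricrin, by 0.62. The suprabasal keratin genes Krt10 and Krt1 fell, as Klk7 and Klk8 did, with log2 differences of -2.47 and -1.37 (limma adjusted p = 1.7e-07 and 5.2e-05). Of 12 transcription factors of epidermal differentiation 5 were higher and 2 lower (median 0.02). Grhl1, which regulates desmosomal genes, rose from 546 ± 36.5 to 1221 ± 129 (SD, n = 5 each, adjusted p = 1.1e-06), and Zfp750 by 0.59. Vdr, the vitamin D receptor, fell from 717 ± 61.9 to 431 ± 25.6 (adjusted p = 1.9e-05). Cebpb also fell, by 0.58, and kept its call in only 4 of the 10 fits that left out 1 array, with an adjusted p of up to 0.0742.

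Klk4 was set beside other genes of tooth enamel. Of 5 tested members of that list 3 were lower and none higher, with a median log2 difference of -0.25. Shares over all genes tested were 16.2% lower and 13.0% higher. Amelx passed as higher under 4 alternatives (array weights, without KO 6, without WT 1 and KO 6, and with both as a block). Amtn, amelotin, fell from 503 ± 80.4 to 324 ± 55.0 (SD, n = 5 each, limma adjusted p = 0.00355), and Ambn and Odam by 0.63 and 0.25 on the log2 scale. The signals of these last genes were low. Odam gave 27.9 to 36.2 on WT and 20.8 to 24.7 on KO arrays, and Ambn 18.4 to 27.5 on KO arrays. These values lay below the array medians, where added background has most weight. Amelx, amelogenin, had a difference of 0.30 (adjusted p = 0.0788), and Mmp20, the other enamel protease, one of -0.09 (adjusted p = 0.435). Klk4 itself, with its difference of 0.003, did not pass in either direction.

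The genes whose signals followed the members most closely were found by the root-mean-square difference of log2 signals over the 10 arrays, after subtracting each gene's WT mean. For Klk7 they were Nmrk1 (0.12), Tesc (0.12) and Nxph2 (0.13). For Klk8 they were Arhgef16, Lyz2 and Ppp2r3c, each at 0.07. All 6 were called lower, with log2 differences from -0.41 for Nxph2 to -0.58 for Nmrk1. Because only WT means were subtracted, genes near a member that fell must have fallen by a similar amount. The calls of these 6 are therefore no separate result. The same measure between Klk7 and Klk8 was 0.17, against 0.43 between Klk7 and Klk4 and 0.37 between Klk8 and Klk4. It was 0.17 between Klk8 and Klk6 as well, and 0.26 between Klk7 and Klk6. Many genes that are no kallikreins lay nearer, since Klk8 ranked 65 among the genes nearest to Klk7 and Klk7 ranked 622 among those nearest to Klk8. The measure takes in both the genotype difference and the variation between arrays, so distances between members partly restate their log2 differences.

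Other measured quantities moved with the genotype. Aire, a regulator of peripheral tissue genes in mTECs, had a signal of 8791 ± 1156 on WT and 6504 ± 1199 on KO arrays (SD, n = 5 each, log2 difference -0.45, limma adjusted p = 0.0282). The call for Aire was lost without WT 3, WT 4 or WT 5 (limma adjusted p = 0.0613, 0.0639 and 0.0681). KO 6 had the lowest Aire signal of its group, 4368, and the lowest Klk7 signal, and its Klk8 signal of 181 lay among those of the other KO arrays. WT 1 had the lowest Aire signal of its group, 6966, the highest Klk7 signal and the lowest Klk8 signal, 235. A relation of Aire to either gene across the arrays was not tested. Of 8 tested markers of cortical thymic epithelium 3 were higher and 1 lower, and their summed signal was 10885 to 14709 on WT and 19022 to 22601 on KO arrays. Most of that sum was Ctsl, with means of 5458 and 9991, and Ccl25, with 4946 and 7687. Enpep was also higher (log2 difference 0.82, limma adjusted p = 1.7e-05). Ly75, the 1 lower marker, had means of 117 on WT and 78.6 on KO arrays (log2 difference -0.49, limma adjusted p = 0.0229). The cortical genes Psmb11 (log2 difference 0.33, adjusted p = 0.581) and Prss16 (0.49, adjusted p = 0.181) were not called. Psmb11 was 34.3 on KO 6 and 190 to 288 on the other KO arrays, against 69.4 to 173 on WT arrays. Prss16 was 1065.5 on KO 6 and 1803 to 2343 on the other KO arrays, against 698 to 1999 on WT arrays. Of 8 tested myeloid markers 5 were lower and 1 higher, with summed signals of 6256 to 6677 on WT and 4075 to 5047 on KO arrays, most of it Lyz2. Of 5 tested endothelial markers 4 were higher and none lower, with sums of 218 to 448 on WT and 446 to 529 on KO arrays, and Tie1 lay below the filter. Pecam1 and Emcn were below the filter level on WT 2 to WT 5 (15.8 to 20.9 and 12.7 to 19.5). They entered the test mainly through the KO arrays, so their calls are not read as a result. The largest signal of the 5 was Tek (means of 158 on WT and 206 on KO arrays), which was not called. Of 7 tested fibroblast markers Lum and Dcn were higher and none was lower, with sums of 2507 to 3164 on WT and 2682 to 3490 on KO arrays. Of 3 tested B cell markers Cd79b was lower and Ms4a1 higher, with sums of 337 to 393 on WT and 272 to 302 on KO arrays. None of 9 tested thymocyte markers and none of 2 tested erythroid markers was called (limma, adjusted p under 0.05). Over all genes tested, 13.0% were higher and 16.2% lower. The part of these quantities in the fall of Klk7 and Klk8 was not tested.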

How the data were processed

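The authors deposited linear signal intensity per probe set for 10 arrays. MAS5, without a version, is the tool named in the submitters' processing notes, while scaling, background step and genome build are unstated in the labels. Of 45101 probe sets, 34958 had 1 gene symbol in the platform annotation, 932 had several and 9211 none, and 34754 were matched by Entrez identifier to RefSeq symbols of GRCm38.p6. A probe set was kept when it exceeded the 40th percentile of its array on at least 5 arrays, and each gene was represented by its kept probe set of highest mean, which left 14087 genes. The test was limma 3.58.1 under R 4.3.3 (trend and robust eBayes) on log2(value + 16), KO minus WT, with Benjamini-Hochberg adjustment over all tested genes and a threshold of 0.05. Fold changes on this scale understate changes of low signals. The procedure was tested on simulated data. The members and gene lists were chosen with earlier results of these data known. Genes were named by rule, namely all members, members of the lists, and the 3 genes nearest each called member, leaving out unnamed predicted genes. Alternatives were the offset, normalization, filter, probe set choice, variance model, array weights, an adjusted p threshold of 0.01, blocks for Xist and for WT 1 with KO 6, and arrays left out. The labels give no batch, so the block for WT 1 with KO 6 was a choice of the re-analysis and not a documented batch. For arrays, their number limits the precision. Numbering did not pair WT with KO arrays.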

Additional observations from a re-analysis of the deposited data

Results flagged for a closer look

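Among 16 groups of 5 arrays, 2 held an array far from the others by a gap test that chance passes in about 1 group in 20. Klk4 was 241.2 on KO 6 against 351.8 to 382.4 on the other KO arrays. Klk10 was 31.37 on WT 2 against 24.54 to 26.11 on the other WT arrays.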

How the results depend on the processing

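Klk7 and Klk8 stayed lower and past the threshold in all 23 refits, with log2 differences of -0.60 to -0.42 and -0.47 to -0.36, and an adjusted p of at most 0.0128 for either. Changes of filter, probe set choice or variance model and the block for WT 1 with KO 6 could not move these log2 differences. Those refits could alter only the SE and adjusted p. The number of lower members was 2 or 3. The number of higher members was 0 and became 1, Klk10, with quantile normalization (1), median centring (1), the mean of probe sets (1), array weights (1) and WT 1 with KO 6 as a block (1), and lay between 0 and 1 when single arrays were left out, with 1 only without WT 2. Klk13 changed sign to 0.13 with array weights and 0.11 without WT 1 and KO 6, and lay between -0.116 and 0.0927 over single arrays left out, as Klk4 did between -0.0437 and 0.114, with no call in any. Counts of calls at an adjusted p under 0.01 were 2 lower and 0 higher members. The cause of these shifts was not tested. Over all genes, that threshold lowered the lower calls from 2281 to 1313. It also lowered the higher calls from 5 to 2 among the inhibitors, from 6 to 3 among the substrates and from 5 to 3 among the epidermal factors. The lower epidermal factors were 4 with array weights, against 2, and 1 without KO 7, KO 8, KO 9 or KO 10. The lower enamel genes fell from 3 to 1 with a filter at the 60th percentile, which also left Klk10 out. No paired analysis was possible because the groups share no replicate number. Detection calls were not used, so low signals such as those of Klk10 and Klk11 could not be told from background.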
